A study of Homo sapiens with 6 samples.

Results

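Cancer stem cell markers are genes whose products have been used to pick out the cells of a tumour that renew themselves and seed new growth. The 10 genes described here are CD44, CD24, PROM1, ALDH1A1, ALDH1A3, SOX2, POU5F1, KLF4, NES and DCLK1. They were taken by gene symbol from a table of 62703 genes, and each symbol matched 1 gene. The cells were of the PANC-1 line, which derives from a human pancreatic carcinoma of the duct. Messenger RNA was sequenced from 3 wild-type libraries (WT, genotype DKK1-SE+/+) and from 3 knockout libraries (DKK1-SE-KO, genotype DKK1-SE-/-), labelled as biological replicates. In the knockout cells CRISPR/Cas9 had removed e1, a component enhancer of DKK1-SE, the super-enhancer of the Wnt antagonist gene DKK1, from every copy. According to the study the homozygous knockout is a single subclone, so a difference between that subclone and its parent line cannot be told apart from an effect of the deletion. Total expected counts were 21822314, 16475810 and 18803154 in WT replicates 1 to 3 and 17359835, 20098086 and 17804764 in DKK1-SE-KO replicates 1 to 3.

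The markers fall into 4 kinds. CD44, CD24 and PROM1 encode surface proteins by which antibodies sort cells, and CD44 and CD24 were among the surface proteins used to isolate tumour-forming cells from pancreatic carcinoma. ALDH1A1 and ALDH1A3 encode cytosolic aldehyde dehydrogenases that turn retinaldehyde into retinoic acid, and their activity is read by a fluorescent assay that sorts stem-like cells. SOX2, POU5F1 (which encodes OCT4) and KLF4 are transcription factors of pluripotency and of cellular reprogramming. NES encodes the progenitor intermediate filament nestin, and DCLK1 encodes a microtubule-associated kinase that marks tuft cells and has been used as a marker of pancreatic tumour-initiating cells.

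The gene that the study names as the target of DKK1-SE was read first, as a check of the labels. DKK1 stood at 229, 246 and 199 TPM (a level scaled by transcript length and by library size) in WT replicates 1 to 3, and at 66.8, 79.8 and 82.7 TPM in DKK1-SE-KO replicates 1 to 3. Every knockout library lay below every wild-type library, and the fitted log2 fold change (DKK1-SE-KO minus WT) was -1.45 (SE 0.11, edgeR quasi-likelihood adjusted p = 6.2e-06, n = 3 per group). The labels and the gene go the same way.

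Of the 10 markers 5 carried enough reads to be tested, which were CD44, CD24, ALDH1A3, KLF4 and NES. PROM1, ALDH1A1, SOX2, POU5F1 and DCLK1 did not pass the filter on low counts and are given by their reads. Of the 5 tested markers 2 were lower in DKK1-SE-KO at an adjusted p under 0.05, CD24 and ALDH1A3, and 0 were higher by edgeR. Across all 15179 tested genes 5972 passed (39.3%), 3013 of them higher (19.8%) and 2959 lower (19.5%), so 2 of 5 is close to the share among all genes. At an unadjusted p under 0.05 edgeR had 1 marker higher, NES. DESeq2, which also took the low genes, had 1 marker higher at an adjusted p under 0.05, ALDH1A1, and limma on log2 TPM had 0. The study called genes at a p under 0.05 and a fold change of 1.2 without naming a scale. With 1.2 taken on the log2 scale, a choice made here, 1 of 5 tested markers passed, CD24, against 8.66% of all tested genes. With 1.2 taken as a linear fold, 3 of 5 passed, CD24, ALDH1A3 and NES, against 47.6% of all tested genes. TPM did not overlap between the groups for 3 of the 5 tested markers, CD44, CD24 and ALDH1A3, against 44.2% of all tested genes.

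**Figure D1:**
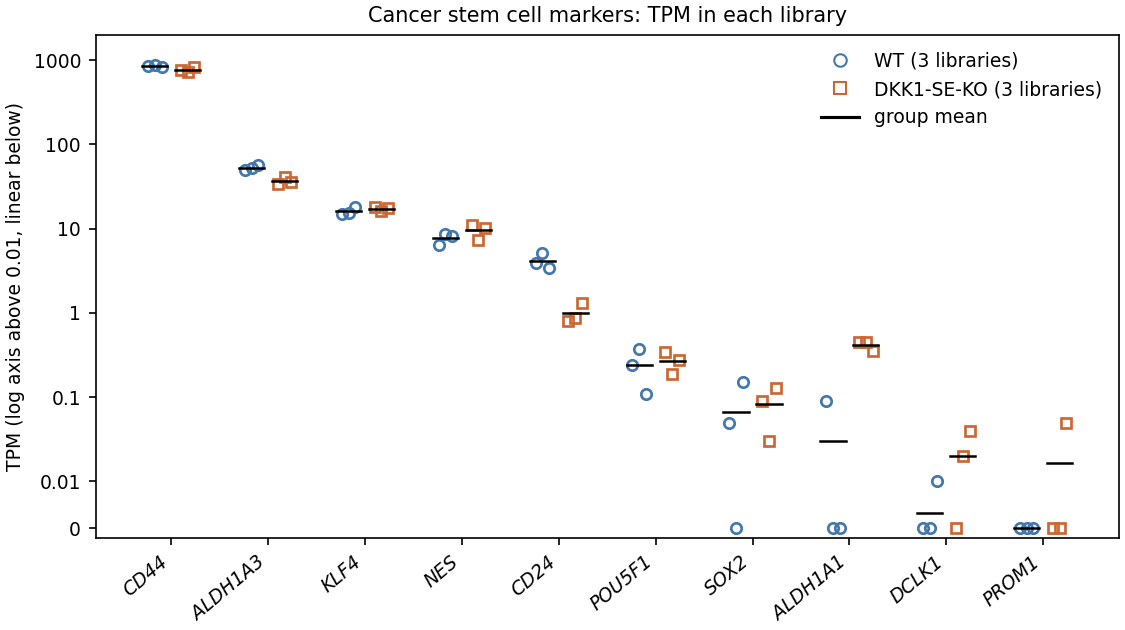
TPM of the 10 markers in each of the 6 libraries, on a log axis that turns linear below 0.01 TPM; circles are WT, squares are DKK1-SE-KO and bars are group means. CD44 stands highest in both groups, at 725 to 865 TPM over the 6 libraries, the CD24 and ALDH1A3 squares lie below their circles, and the ALDH1A1 squares (0.35 to 0.45 TPM) lie above theirs (0 to 0.09 TPM).

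CD24 encodes a small, heavily glycosylated protein that is tethered to the outer membrane. The gene (ENSG00000272398) lies on the minus strand of chromosome 6, bases 106969831 to 106975627 of hg38. It stood at 3.89, 5.09 and 3.39 TPM in WT replicates 1 to 3 and at 0.80, 0.88 and 1.31 TPM in DKK1-SE-KO replicates 1 to 3. All 3 knockout libraries lay below all 3 wild-type libraries, and the mean level went from 4.12 TPM (SD 0.87, n = 3) to 1.00 TPM (SD 0.27, n = 3). The expected counts behind these levels were 132, 124 and 94 in WT and 23, 29 and 30.0 in DKK1-SE-KO. CD24 fell to 0.25 of its wild-type level in the fit (95% confidence interval 0.18 to 0.36), a log2 fold change of -1.98 (SE 0.24, edgeR adjusted p = 1.2e-04). On TPM alone the two-sided exact permutation p was 0.1, the smallest that 3 against 3 libraries can give. In RNA from a bulk culture, fewer cells with a transcript and less transcript per cell cannot be told apart. CD24 has 4 pseudogenes in the annotation, and all of them had 0 counts in every library.

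CD44 encodes the main surface receptor for hyaluronan, made in many splice forms. The gene (ENSG00000026508) lies on the plus strand of chromosome 11, bases 35138882 to 35232402. It was the most abundant of the 10 markers, at 858, 865 and 839 TPM in WT and 764, 725 and 820 TPM in DKK1-SE-KO. The knockout levels were all below the wild-type levels, but the gap between the nearest pair of libraries, 820 and 839 TPM, was smaller than the spread within DKK1-SE-KO (SD 47.6 TPM). The log2 fold change was -0.18 (95% confidence interval -0.38 to 0.030), and CD44 did not pass (edgeR adjusted p = 0.160). Without DKK1-SE-KO replicate 3, the knockout library nearest to WT, the adjusted p was 0.039 at a log2 fold change of -0.23, and over all settings the adjusted p ranged from 0.039 to 0.569. CD44 made up 90.7% to 92.5% of the summed TPM of the 10 markers in each library.

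PROM1 encodes prominin-1, the CD133 antigen, a protein of membrane protrusions. It had 0 counts in all 3 WT libraries and in DKK1-SE-KO replicates 1 and 2, and 1 count in DKK1-SE-KO replicate 3. A count of 0 over the 57101278 counts of the WT group allows up to 3 counts, 0.053 CPM (counts scaled by library size), and both groups are at or under that floor. PROM1 was therefore not detectable at this depth, and no fold change is given. This floor, like the counting intervals given for other genes, covers counting error only. A ratio given below as at least some fold against this floor takes the knockout counts as exact, so it is not a confidence limit.

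The levels of CD44 and CD24 moved apart. The ratio of CD44 TPM to CD24 TPM was 220, 170 and 247 in WT and 955, 824 and 626 in DKK1-SE-KO, with every knockout library above every wild-type library. CD24 carries most of this shift, as CD44 TPM in DKK1-SE-KO was 90.1% of its WT mean and CD24 TPM was 24.2% of its WT mean. The ratio was chosen after its parts were seen and is given with no test.

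ALDH1A3, on the plus strand of chromosome 15 (ENSG00000184254, bases 100877714 to 100916626), was the second most abundant marker. It stood at 49.3, 52.6 and 56.3 TPM in WT and at 33.6, 40.7 and 36.2 TPM in DKK1-SE-KO. All 3 knockout libraries were lower, and the group means of 52.7 TPM (SD 3.49, n = 3) and 36.9 TPM (SD 3.62, n = 3) differed by more than the spread within either group. ALDH1A3 fell to 0.80 of its wild-type level in the fit (95% confidence interval 0.69 to 0.92), a log2 fold change of -0.33 (SE 0.10, edgeR adjusted p = 0.019). The call did not hold with each library left out. The adjusted p was 0.070 without WT replicate 1, 0.073 without WT replicate 2, 0.073 without WT replicate 3 and 0.073 without DKK1-SE-KO replicate 2, with log2 fold changes from -0.31 to -0.35, and over all settings it ranged from 0.0019 to 0.095. The annotation places ALDH1A3-AS1 on the opposite strand of the same locus, with 104 to 189 counts in each library against 1407 to 2533 for ALDH1A3. The counting strand is not given in the sources used here, so reads of that pair cannot be told apart with certainty.

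ALDH1A1 went the other way in its raw reads. WT replicate 1 had 3 counts and WT replicates 2 and 3 had 0, while DKK1-SE-KO replicates 1 to 3 had 12, 13 and 9. In TPM these are 0.09, 0 and 0 against 0.45, 0.45 and 0.35, so each knockout library exceeded each wild-type library at a level far below that of ALDH1A3. The pooled reads, 34 of 55262684 against 3 of 57101278, give a ratio of 11.7 (95% exact counting interval 3.68 to 59.6). All 3 WT reads are in WT replicate 1, and without it ALDH1A1 was at least 7.24-fold higher against a floor of 3 counts over the WT group. The gene did not pass the count filter and has no test beside the others. Without that filter edgeR gave an adjusted p of 0.0011 and DESeq2 gave 0.015. The filter let it in only without WT replicate 1, 2 or 3 or DKK1-SE-KO replicate 3, and those fits, which hold it because of the change itself, are not used as support.

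The ALDH1A genes together kept ALDH1A3 as their main transcript. The summed TPM of ALDH1A1, ALDH1A2 and ALDH1A3 was 49.4, 52.6 and 56.7 in WT and 35.6, 43.1 and 37.7 in DKK1-SE-KO. ALDH1A3 was 99.3% or more of that sum in WT libraries and 94.2% to 96.2% in DKK1-SE-KO libraries. The rest of the knockout sum is ALDH1A1 and ALDH1A2, neither of which exceeded 3 counts in any wild-type library.

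Of the pluripotency factors, only KLF4 was expressed at a level that could be tested. KLF4 (ENSG00000136826, minus strand of chromosome 9, bases 107484852 to 107490482) encodes a zinc finger factor that also acts in epithelial differentiation. It stood at 14.9, 15.2 and 17.9 TPM in WT and at 18.2, 16.2 and 17.5 TPM in DKK1-SE-KO. The groups overlapped, and the log2 fold change of 0.21 (95% confidence interval -0.044 to 0.47) did not pass (edgeR adjusted p = 0.171) and turned to -0.041 once GC content was allowed for (adjusted p = 0.755, with a range of 0.147 to 0.783 over all settings). Across the 15167 tested genes with a GC value, which are not independent replicates, the log2 fold change rose with GC content (Spearman rho 0.40), and the transcripts of KLF4 have a GC content of 55.9%, above that of 73.9% of tested genes.

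SOX2 and POU5F1 were close to the limit of detection in both groups. SOX2 had 2, 0 and 5 counts in WT and 3, 1 and 4 in DKK1-SE-KO, a pooled ratio of 1.18 with an exact 95% counting interval of 0.37 to 3.83. POU5F1 had 5, 6 and 3.15 expected counts in WT and 8, 4 and 4 in DKK1-SE-KO, a pooled ratio of 1.18 (0.54 to 2.61). With 1 library left out the SOX2 ratio ran from 0.84 (without WT replicate 2) to 2.77 (without WT replicate 3) and was 0.87 without DKK1-SE-KO replicate 3, and the POU5F1 ratio turned to 0.86 without DKK1-SE-KO replicate 1. The intervals span 1 in both genes, with all libraries and with each left out, so a difference was not detectable at this depth. POU5F1 lies across TCF19, on the opposite strand with 550 to 829 counts in each library, and shares sequence with 6 pseudogenes whose summed counts were 2 to 14, so its few reads are uncertain. SOX2 lies within SOX2-OT, which had 0 to 4 counts.

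NES (ENSG00000132688, minus strand of chromosome 1, bases 156668763 to 156677407) stood at 6.35, 8.70 and 8.26 TPM in WT and at 11.0, 7.41 and 10.2 TPM in DKK1-SE-KO. DKK1-SE-KO replicates 1 and 3 were above every wild-type library, while replicate 2 lay inside the wild-type range. The log2 fold change was 0.45 (SE 0.17, 95% confidence interval 0.08 to 0.81), and the adjusted p of 0.0519 by edgeR did not pass. NES passed without DKK1-SE-KO replicate 2 (log2 fold change 0.58, adjusted p = 0.027) and with no filter on low counts (adjusted p = 0.015). Its log2 fold change was lower without DKK1-SE-KO replicate 1 (0.27, adjusted p = 0.193) and without WT replicate 1 (0.30, adjusted p = 0.256). With the GC-content offset the log2 fold change was 0.24 (adjusted p = 0.208). The adjusted p ranged from 0.015 to 0.348 over all settings. The GC content of NES, 59.3%, is above that of 83.9% of tested genes.

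DCLK1 had 0, 0 and 1 counts in WT and 0, 2 and 3 counts in DKK1-SE-KO. The pooled ratio of 5 to 1 reads per depth was 5.17, with an exact 95% counting interval of 0.58 to 244 that spans 1. The ratio was 3.19 without WT replicate 1 and 3.05 without DKK1-SE-KO replicate 3. Without WT replicate 3 the WT group had 0 counts. The 5 knockout counts against a floor of 3 counts over that group gave 1.16, which leaves out the counting error of those 5. A difference in DCLK1 was not detectable at this depth.

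**Figure D2:**
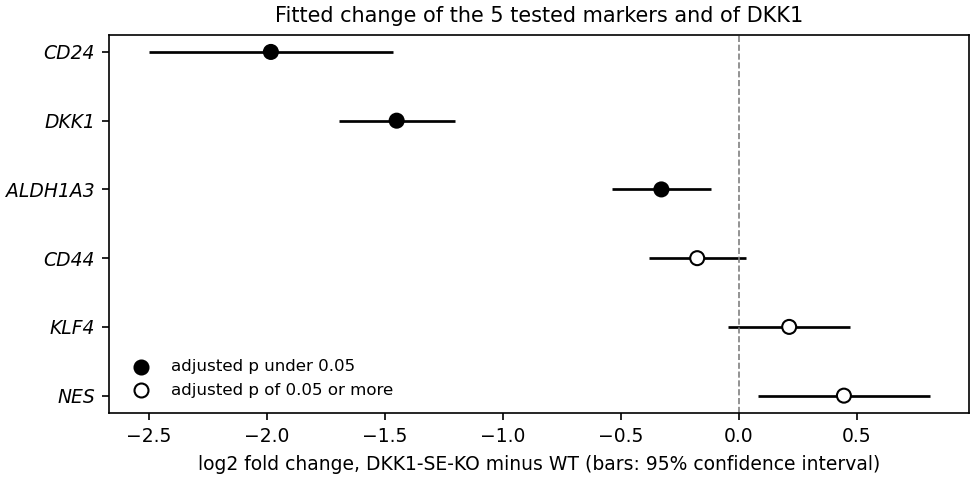
Log2 fold change of the 5 tested markers and of DKK1 between DKK1-SE-KO and WT, with 95% confidence intervals from the edgeR fit on 3 libraries per group; filled points have an adjusted p under 0.05. CD24 (-1.98) lies beside DKK1 (-1.45), ALDH1A3 (-0.33) lies nearer to 0, and the intervals of CD44 and KLF4 cross 0 (KLF4 turns to -0.041 once GC content is allowed for).

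The order of the levels, which can be compared because TPM is per length, was shared by both groups for the 5 tested markers. In each group CD44 was highest, followed by ALDH1A3, KLF4, NES and CD24, and no 2 neighbours in that order had overlapping ranges. Below CD24 the order in WT was POU5F1, SOX2, ALDH1A1, DCLK1 and PROM1, at mean levels from 0.24 down to 0 TPM, with each range overlapping the next. In DKK1-SE-KO ALDH1A1 came next after CD24, at 0.42 TPM (SD 0.06, n = 3), ahead of POU5F1 at 0.27 TPM (SD 0.08, n = 3). CD24 stayed above these in DKK1-SE-KO, at 1.00 TPM. Among all listed genes CD44 ranked between 136 and 164 by TPM in every library.

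The genes around each tested marker were looked at as a description of its locus. Within 5 Mb of CD24 the log2 fold changes of 47 other tested genes centred on a median of -0.024, and none of them was as low as CD24. Around ALDH1A3 the median of 30 genes was 0.016, with 6 at or below the ALDH1A3 value. Around CD44 the median of 33 genes was 0.0020, with 13 at or below the CD44 value. The 32 genes around KLF4 had a median of -0.16, and the 151 genes around NES had a median of 0.17. Beside the shares of 19.8% higher and 19.5% lower over all tested genes, 4 neighbours passed as higher and 11 as lower around CD24, 4 and 5 around ALDH1A3, 3 and 8 around CD44, 0 and 7 around KLF4, and 37 and 11 around NES. Within 2 Mb the medians were -0.10 around CD24, 0.016 around ALDH1A3, 0.026 around CD44, -0.048 around KLF4 and 0.21 around NES. Over the whole chromosome they were -0.044 for CD24 (787 genes of chromosome 6, with 7 at or below CD24), -0.052 for ALDH1A3, 0.17 for CD44, 0.058 for KLF4 and 0.021 for NES, so the sign around ALDH1A3 and KLF4 depends on the distance taken.

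The promoters of CD24 and ALDH1A3 are shown because these 2 markers fell, and that of KLF4 because it holds the one match to a searched motif among the tested markers. RefSeq windows run from 250 bases before to 50 bases after a start site in GRCh38.p14, and 16 windows matched 9 of the 10 markers (none for POU5F1). The bases printed, 5′ to 3′ on the strand of the gene, are the 225 from 250 to 26 bases before the start. They are chr6:106975653-106975877 on the minus strand for CD24, chr15:100879581-100879805 on the plus strand for ALDH1A3 and chr9:107489795-107490019 on the minus strand for KLF4. Capitals mark a match to CACGTG.
CD24: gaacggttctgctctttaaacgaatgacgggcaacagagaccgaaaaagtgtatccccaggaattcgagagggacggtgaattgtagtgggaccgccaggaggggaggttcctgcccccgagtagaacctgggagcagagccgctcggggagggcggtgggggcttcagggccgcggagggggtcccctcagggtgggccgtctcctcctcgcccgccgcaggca
ALDH1A3: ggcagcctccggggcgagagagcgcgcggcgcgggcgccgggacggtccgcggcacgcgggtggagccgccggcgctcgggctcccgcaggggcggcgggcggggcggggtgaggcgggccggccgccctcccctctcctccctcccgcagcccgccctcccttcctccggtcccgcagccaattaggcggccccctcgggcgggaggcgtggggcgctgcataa
KLF4: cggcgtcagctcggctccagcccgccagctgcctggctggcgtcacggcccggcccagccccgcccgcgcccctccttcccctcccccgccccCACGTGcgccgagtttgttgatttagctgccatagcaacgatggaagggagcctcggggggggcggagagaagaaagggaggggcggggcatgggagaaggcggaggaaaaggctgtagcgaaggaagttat
The windows were searched for TGANTCA, the letters of the AP-1 motif, and for CACGTG, the E-box. Both motifs read the same on either strand, so 1 search covers both strands. TGANTCA is in 7.71% of all 35116 promoter windows and CACGTG is in 7.26%. Neither CD24, with 3 windows, nor ALDH1A3, CD44 or NES, with 1 window each, holds either motif. KLF4 holds CACGTG 157 bases before its start. Among the markers with few reads, 1 of 4 PROM1 windows and 2 of 3 DCLK1 windows hold TGANTCA. The printed bases are 64.9% G and C in CD24, 82.2% in ALDH1A3 and 68.9% in KLF4.

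Other genes reported as stem cell markers moved in both directions. Of 27 listed genes 20 were tested, and 7 (35%) were higher and 6 (30%) lower in DKK1-SE-KO. Over all tested genes 19.8% were higher and 19.5% lower. The median log2 fold change of the list was 0.0050 beside 0.030 over all tested genes. ABCG2, the drug efflux pump behind the side population assay, rose from 3.80, 3.93 and 4.50 TPM to 22.9, 26.0 and 32.9 TPM (log2 fold change 2.93, SE 0.13, adjusted p = 1.6e-07). CXCR4, the receptor of the chemokine CXCL12, rose from 7, 4 and 2 counts to 31, 34 and 29 counts (log2 fold change 2.95, adjusted p = 4.3e-04). The knockout libraries alone took CXCR4 through the count filter, so its test is not used as support. ITGB4, a laminin-binding integrin subunit, rose from 13.0 TPM (SD 3.32) to 26.9 TPM (SD 5.02) (log2 fold change 1.09, adjusted p = 2.8e-04). MCAM, the adhesion molecule CD146, fell from 101 TPM (SD 5.62) to 28.3 TPM (SD 1.09) (log2 fold change -1.47, adjusted p = 2.5e-06). EPCAM, which is paired with CD44 and CD24 in sorting pancreatic tumour cells and was picked after its values were seen, fell from 4.17 to 2.58 TPM in the group means (log2 fold change -0.67, adjusted p = 0.039).

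Among 23 other pluripotency regulators 8 were tested, 3 were higher (37.5%) and 1 was lower (12.5%), beside 19.8% and 19.5% over all tested genes. The median log2 fold change of the list was 0.31, beside 0.030 over all tested genes. KLF5, a factor of epithelial and stem cells, rose from 122, 68 and 104 counts to 199, 216 and 206 counts (log2 fold change 1.21, adjusted p = 2.8e-04). Its TPM of 29.2 in DKK1-SE-KO replicate 1 stands apart from 4.35 and 5.08 TPM in the other 2 knockout libraries although their counts are alike, and on the TPM scale limma did not pass KLF5. TFCP2L1, a factor of the naive pluripotent state, fell from 1.26 TPM (SD 0.24) to 0.48 TPM (SD 0.06) (log2 fold change -1.23, adjusted p = 5.8e-04). TBX3, a T-box factor, rose by a log2 fold change of 0.82 (adjusted p = 0.0014), and DNMT3B, a DNA methyltransferase, by 0.86 (adjusted p = 0.0061), and limma on TPM passed neither. The other 15 of the 23 genes had too few reads to test, and NANOG was among them with 4 counts in WT and 0 in DKK1-SE-KO, picked after its values were seen.

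The other aldehyde dehydrogenases gave 13 tested genes of 17, with 2 higher (15.4%) and 3 lower (23.1%), beside 19.8% and 19.5% over all tested genes. Their median log2 fold change was 0.051, beside 0.030 over all tested genes. ALDH1A2, the third retinaldehyde dehydrogenase of the ALDH1A group, had 0, 0 and 2 counts in WT and 36, 65 and 47 in DKK1-SE-KO. Its pooled ratio was 76.5 (95% exact counting interval 20.8 to 637), with an edgeR adjusted p of 5.7e-05. ALDH1A2 passed the count filter through its knockout libraries alone, so that test is not used as support. The size of the ratio rests on 2 reads in WT replicate 3, and without that library it was at least 34.2-fold against a floor of 3 counts over the WT group. Without WT replicate 1 the ratio was 47.2 (12.8 to 394). The fits with each library left out also hold ALDH1A2 through its knockout counts and are not used as support. ALDH7A1, an enzyme of lysine breakdown, fell by 0.92 on the log2 scale (adjusted p = 6.2e-04), and ALDH1L2, a mitochondrial enzyme of folate metabolism, fell by 1.04 (adjusted p = 0.0036). ALDH4A1, a mitochondrial enzyme of proline breakdown, rose from 10.6 TPM (SD 0.97) to 17.2 TPM (SD 3.42) (log2 fold change 0.82, adjusted p = 0.0023).

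Of the retinoic acid pathway, to which the ALDH1A enzymes belong, 13 of 23 genes were tested. Of these 6 were higher (46.2%, STRA6 among them) and 1 was lower (7.69%), beside 19.8% and 19.5% over all tested genes. The median log2 fold change of the list was 0.29, beside 0.030 over all tested genes. TGM2, a transglutaminase known as a retinoic acid target, rose from 24.4 TPM (SD 1.04) to 40.7 TPM (SD 2.98) (log2 fold change 0.92, adjusted p = 1.7e-04). STRA6, a membrane receptor that takes up retinol, rose from 8, 5 and 10 counts to 60, 33 and 28 counts (log2 fold change 2.53, adjusted p = 0.0016). Only its knockout libraries took STRA6 through the count filter, so its test is not used as support. RDH10, which makes retinaldehyde from retinol, was higher by 0.72 on the log2 scale in counts (adjusted p = 0.0076) and did not pass limma on TPM. CYP26B1, which breaks retinoic acid down, fell from 17.5 TPM (SD 2.82) to 9.13 TPM (SD 1.21) (log2 fold change -0.52, adjusted p = 0.0047).

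Of 23 genes of hyaluronan metabolism and of CD44 partners 17 were tested. Of these 2 were higher (11.8%, SPP1 among them) and 7 lower (41.2%, MMP14 among them), beside 19.8% and 19.5% over all tested genes. The median log2 fold change of the list was -0.28, beside 0.030 over all tested genes. HAS2, a hyaluronan synthase, fell from 3.87 TPM (SD 0.13) to 0.91 TPM (SD 0.26) (log2 fold change -1.96, adjusted p = 3.2e-05). EZR, which encodes ezrin, a link between CD44 and the actin cytoskeleton, fell from 428 TPM (SD 26.3) to 217 TPM (SD 17.2) (log2 fold change -0.84, adjusted p = 9.5e-05). MMP14, a membrane protease that cleaves CD44, fell from 105, 91 and 103 counts to 9, 5 and 6 counts (log2 fold change -3.76, adjusted p = 9.6e-06). The wild-type libraries alone took MMP14 through the count filter, so its test is not used as support. SPP1, which encodes the CD44 ligand osteopontin, rose from 5 pooled counts to 211, or 56, 73 and 82 counts in the 3 knockout libraries. The log2 fold change was 5.40 (adjusted p = 9.1e-06), and 6.16 without WT replicate 2. SPP1 passed the count filter through its knockout libraries alone, so these fits are not used as support.

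The relatives of SOX2 and KLF4 gave 20 tested genes of 34, with 3 higher (15%) and 5 lower (25%), beside 19.8% and 19.5% over all tested genes. Their median log2 fold change was 0.20, beside 0.030 over all tested genes. SOX21 fell from 3.17 TPM (SD 0.06) to 0.39 TPM (SD 0.25) (log2 fold change -2.92, adjusted p = 5.3e-05), or from 145, 110 and 124 counts to 9, 12 and 25. The wild-type libraries took SOX21 through the count filter and the knockout libraries alone would not have, so its test is not used as support. KLF12 fell from 1.48 TPM (SD 0.43) to 0.39 TPM (SD 0.15) (log2 fold change -1.46, adjusted p = 4.8e-04). SOX13 rose from 6.76 TPM (SD 0.88) to 13.6 TPM (SD 1.42) (log2 fold change 1.16, adjusted p = 1.6e-04), and KLF5 counts here as well. Of 13 relatives of NES, DCLK1 and PROM1 only 5 were tested, 1 higher (20%) and 3 lower (60%). Their median of -0.47 is the same with the gene at 0 in WT set to its bound. The intermediate filament gene VIM, at 4159 TPM in WT, fell to 2684 TPM (log2 fold change -0.47, adjusted p = 0.0060), SYNM fell by 0.85 on the log2 scale (adjusted p = 2.7e-04), and the kinase gene DCLK2 fell by 0.96 (adjusted p = 0.0010). NEFM, a neurofilament gene, had 0 counts in all WT libraries and 21.4, 30.0 and 29.3 counts in DKK1-SE-KO. Its edgeR adjusted p was 1.4e-04, but NEFM passed the count filter through the knockout libraries alone, so that test is not used as support. The counts make it at least 27.9-fold higher against a floor of 3 counts over the WT group. Without WT replicate 1, the deepest library, that bound is 17.2-fold.

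The annotation of the table adds longer lists, each of which holds SOX2, POU5F1 and KLF4. Of 132 genes in the KEGG pathway of signalling for pluripotency 98 were tested, with 13 higher (13.3%) and 33 lower (33.7%). Over all tested genes 19.8% were higher and 19.5% lower. The median log2 fold change of the list was -0.27, beside 0.030 over all tested genes. BMP4, a bone morphogenetic protein, fell from 6.02 TPM (SD 1.07) to 0.47 TPM (SD 0.25), with a log2 fold change of -4.56 (adjusted p = 5.1e-06). Only its wild-type libraries took BMP4 through the count filter, so its test is not used as support. BMPR2, which encodes a receptor of bone morphogenetic proteins, fell by 1.15 on the log2 scale (adjusted p = 7.3e-05). The Wnt receptor gene FZD6 fell by 1.98 (adjusted p = 7.1e-06) and the Polycomb gene PCGF5 by 2.02 (adjusted p = 9.8e-06). Of 147 genes in the gene ontology term for stem cell population maintenance 98 were tested, with 14 higher (14.3%) and 25 lower (25.5%). Their median was -0.067. CDH2, which encodes N-cadherin, fell from 19.3 TPM (SD 0.21) to 1.37 TPM (SD 0.26) (log2 fold change -3.85, adjusted p = 9.7e-08). FOXP1, a forkhead factor, fell by 2.82 on the log2 scale (adjusted p = 1.2e-06), and LSM1, which acts in mRNA decay, by 1.22 (adjusted p = 5.3e-05). The medians of both lists are the same with HAND1 and SALL1, which had 0 counts in WT, set to their bounds.

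The genes most like each called marker over the 6 libraries were sought by Pearson correlation of log2 CPM among 12243 genes. For CD24 they were PPP2R2C, KDM1B and VTA1, each with r = 0.997, and for ALDH1A3 they were GABPB1-AS1 (r = 0.999), SUPV3L1 (r = 0.997) and HRH1 (r = 0.997). All 6 genes were lower in DKK1-SE-KO, with log2 fold changes from -0.34 to -0.85. The 6 libraries fall into the 2 genotypes, which fixes most of each correlation, so the values describe a pattern and carry no p. GABPB1-AS1 did not pass limma on TPM (adjusted p from 1.9e-07 to 0.202 over all settings). SUPV3L1 did not pass without WT replicate 1 (0.091), 2 (0.093) or 3 (0.108) or DKK1-SE-KO replicate 2 (0.097), with the replicate block or with no filter on low counts (0.0068 to 0.118 over all settings). KDM1B did not pass without WT replicate 2 (0.089), with the replicate block or with the GC-content offset, alone or together (0.0057 to 0.089 over all settings).

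Markers of pancreatic duct and carcinoma cells were present. Of 8 such genes all were tested, and 4 were higher (50%) and 2 lower (25%), beside 19.8% and 19.5% over all tested genes. The TPM summed over the 8 genes was 1910 to 2007 in WT and 2728 to 3217 in DKK1-SE-KO. The most abundant was KRT8, at 936 to 988 TPM in WT and 1362 to 1668 TPM in DKK1-SE-KO. CDH1 was low, at group means of 1.59 and 1.35 TPM. None of 8 acinar, 8 endocrine and 8 glial markers was tested, and their sums stayed at or below 1.12 TPM in every library, led by CEL, PAX6 and PAX3. INS, SST, AMY2A, PNLIP and S100B were at 0 in every library. Of 8 blood cell markers 2 were tested, CD68 and CD14, and both rose. CD14 went from 12, 4 and 9 counts to 20, 32 and 26. The wild-type libraries alone would not have taken CD14 through the count filter, so its test is not used as support. The sums were 41.2 to 47.0 TPM in WT and 66.6 to 69.3 TPM in DKK1-SE-KO, led by CD68 (group means 43.5 and 66.6 TPM). The pan-leukocyte gene PTPRC had 0 counts in WT and 2 in DKK1-SE-KO. Of 8 endothelial markers 2 were tested and KDR fell, with sums of 2.73 to 2.93 TPM against 0.91 to 1.23 TPM, and PECAM1 had 1 count in each group. Of 8 fibroblast markers 2 were tested, COL1A1 fell and COL3A1 rose, and the sum went from between 94.5 and 106 TPM to between 13.3 and 20.8 TPM, with COL1A2 and FAP at 0. The part of these shifts in the values of CD24 and ALDH1A3 was not tested.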

How the data were processed

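The deposited table gives expected counts and TPM per gene and library and, per the file headers, group mean TPM and gene length. It covers 6 stranded mRNA libraries, 3 WT and 3 DKK1-SE-KO. The authors estimated the expected counts, of which 32.3% of the nonzero values are not whole, and scaled them by transcript length and depth to TPM. The deposited log2 fold changes, linear fold ratios and p-values of the authors' own DESeq2 comparison were not used. Reads were processed on the Majorbio platform against hg38; the aligner, counter, annotation and counting strand are not given in the sources used here. Gene positions come from GENCODE 44, in which 62625 of 62703 genes were placed.

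Expected counts were rounded to whole numbers, filtered with filterByExpr (minimum count 10), scaled by TMM and fitted with edgeR 4.0.16 (quasi-likelihood F test, R 4.3.3), with Benjamini-Hochberg adjustment over 15179 genes and a threshold of 0.05. Alternatives used DESeq2 1.42.0, limma 3.58.1 on log2(TPM + 1) and log2(TPM + 0.1), RLE or library size scaling, no filter, a replicate block, a GC-content offset over 40 bins, and each library left out. The scripts were tested on simulated data. Exact counting intervals and permutation tests used scipy 1.17.1.

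The members and the lists were chosen with earlier results of these data known. Beside the members and DKK1, the genes named are the 4 with the smallest p among the tested genes of each of 7 hand-written lists and 2 annotation lists, and the 3 genes most correlated with each of 2 called members. A gene that this rule takes is not reported here. Other genes named overlap a member in the annotation, had 0 counts in WT and belong to an annotation list, belong to the cell type markers, or are said to be chosen after their values were seen.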

Additional observations from a re-analysis of the deposited data

How the results depend on the processing

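CD24 and DKK1 passed in every setting, with log2 fold changes of -1.35 to -2.12 for CD24 and -1.32 to -1.55 for DKK1. Of the 10 cancer stem cell markers 2 passed as reported, 0 higher and 2 lower, beside 5972 of all 15179 tested genes. With no filter on low counts 4 passed, 2 of them higher (ALDH1A1 and NES), beside 6545 of all 31045 tested genes. With DESeq2 3 passed, 1 of them higher (ALDH1A1), beside 5602 of all 31043 tested genes. Leaving out each library in turn gave 2 to 4 markers in all, 0 to 1 higher and 1 to 3 lower, beside 4095 to 7558 of all genes. The most, 4 markers, were without DKK1-SE-KO replicate 3, where 7558 of all 15618 tested genes passed. The study names no scale for its limit of 1.2. Taken on the log2 scale, a choice made here, 1 marker passed, 2 with DESeq2 and with no filter, and taken as a linear fold 3 passed (CD24, ALDH1A3 and NES). In the main fit the limit took 8.66% of all tested genes on the log2 scale and 47.6% as a linear fold. On the log2 scale 1 to 2 passed with a library left out. ALDH1A1 was tested with DESeq2, with no filter, and without WT replicate 1, 2 or 3 or DKK1-SE-KO replicate 3, but not without DKK1-SE-KO replicate 1 or 2; the cause of these shifts was not tested.

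KLF4 changed sign, to -0.041 with the GC-content offset and to -0.039 with the replicate block and the GC-content offset; the cause was not tested. The count of all genes passing went from 5972 to between 4095 and 7558 over all settings, the highest without DKK1-SE-KO replicate 3. On TPM with limma the median log2 fold change of all genes moved by -0.11 with a pseudocount of 1 and by -0.14 with 0.1. Relative to that median CD24 stood at -1.27 and -1.84, and ALDH1A3 at -0.42 and -0.41. Of the genes passing there, 35.8% and 36.2% were higher, against 50.5% as reported, and 43.5% with library size alone.

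The replicate numbers do not pair the libraries: deviations of same-numbered libraries correlated at -0.12 to -0.074, and 0 of 6 libraries correlated best with their own number. With the replicate block 4981 genes passed and 1 marker, CD24, with 1 lower, as ALDH1A3 had an adjusted p of 0.095; the block changed no other marker's call. Of 690 values for the 5 tested markers and the other genes taken by the rule for named genes (46 genes), 660 kept direction and side of the threshold, 25 no longer passed, 3 newly passed and 2 changed sign. Genes under about 10 counts per library, among them 5 of the 10 markers, are limited by depth.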

Other observations

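Several genes of the lists had almost no reads in WT and some in each DKK1-SE-KO library. They were picked after their values were seen and have too few reads for the main test. ABCB1, which encodes the drug efflux pump P-glycoprotein, had 0, 0 and 1 counts in WT and 8, 9 and 21 in DKK1-SE-KO, a pooled ratio of 39.3 (95% exact counting interval 6.63 to 1591). That ratio was 24.3 without WT replicate 1, at least 8.78-fold without WT replicate 3 (against a floor of 3 counts over the WT group) and 25.9 without DKK1-SE-KO replicate 3. ALDH3A1, an aldehyde dehydrogenase, had 0 counts in every WT library and 21 pooled counts in DKK1-SE-KO, at least 7.23-fold higher against a floor of 3 counts over the WT group. The neurofilament genes NEFL and INA each went from 0 pooled counts to 30, at least 10.3-fold higher against that floor. Without WT replicate 1 the bounds are 4.47-fold for ALDH3A1 and 6.38-fold for NEFL and INA. ALDH8A1 went the other way, with 9, 1 and 3 counts in WT and 1, 2 and 0 in DKK1-SE-KO, a pooled ratio of 0.24 (0.044 to 0.87). WT replicate 1 holds 9 of its 13 WT reads, and the ratio was 0.48 without it and 0.12 without DKK1-SE-KO replicate 2. The interval spans 1 without WT replicate 1, DKK1-SE-KO replicate 1 or DKK1-SE-KO replicate 3.

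The number of CD44 reads per unit of TPM, which for a given library depends on the mean length of the transcripts that the reads were assigned to, also differed between the groups. Set so that the median gene was level across libraries, it was 31.8, 33.4 and 33.5 in WT and 27.8, 28.5 and 31.2 in DKK1-SE-KO, with every knockout library lower. The difference of -0.17 on the log2 scale was exceeded in size by 7.38% of the 4703 genes with at least 500 counts and 5 TPM in every library. NES gave 79.5 to 79.8 in every library. KLF5 gave 7.07 in DKK1-SE-KO replicate 1 and 34.4 to 43.9 in the other 5 libraries, which is where its TPM and its counts part. These values were computed after the data were seen, and CD44 has many splice forms that the table does not separate.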
